A study of Mus musculus with 8 samples.

Results

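The genes described here are the 10 that encode the hormone cargo of the β-cell secretory granule, the enzymes that process it and the proteins packed with it: *Ins1*, *Ins2*, *Iapp*, *Pcsk1*, *Pcsk2*, *Cpe*, *Slc30a8*, *Chga*, *Chgb* and *Scg2*. They were picked as a list of names, with earlier results of these data known, and found by gene symbol in the table the authors deposited, where every probe bearing one of these symbols was kept. This gave 11 probes for 10 genes, with *Pcsk2* on 2 probes, out of 26894 genes with a symbol and 56605 probes on the array. All 11 were well above background on all 8 arrays, and all 11 were among the 35363 probes tested.

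Expression was measured in islets of 4 βUCP2Tg and 4 WT samples, each on its own one-colour Agilent array, to ask what the islets of these mice express differently. βUCP2Tg mice are males that carry a *Ucp2* cDNA behind the rat insulin-2 promoter, on a C57BL/6J background. WT mice are their male littermates without the transgene. Islets of both groups were taken at 8 to 12 weeks of age, as the methods give for islet work, picked by hand, and held for 8 hours in medium with 200 mg/dL glucose, so that no group at another glucose level is compared. The promoter that drives the transgene is itself an insulin gene promoter, active in β-cells. Whether one sample holds the islets of one mouse or of several was not settled, so p-values measure the spread between these samples only. All 8 arrays were on 1 slide, with a row for each genotype, and an effect of the row cannot be told apart from one of the genotype.

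In the β-cell, insulin is made as a precursor, folded in the endoplasmic reticulum and sorted into granules. There the convertases encoded by *Pcsk1* and *Pcsk2* cut it at pairs of basic residues and carboxypeptidase E trims the cut ends, while the zinc transporter encoded by *Slc30a8* loads the zinc with which insulin is stored. Granins such as chromogranin A, chromogranin B and secretogranin II are acidic proteins that aggregate in the forming granule and are released together with the hormone.

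The mouse has a pair of insulin genes whose coding sequences are much alike, so what the probes could tell apart is shown first. The insulin probes are given 5′ to 3′ as the deposited table lists them, with the longest run of bases that both contain in capitals.
Ins1: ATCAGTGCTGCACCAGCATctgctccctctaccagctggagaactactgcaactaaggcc
Ins2: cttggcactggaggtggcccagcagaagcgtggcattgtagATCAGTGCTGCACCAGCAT
The shared run was 19 of 60 bases long and lay at bases 1 to 19 of the *Ins1* probe and at bases 42 to 60 of the *Ins2* probe. No other probe on the array held it. How much transcript of one gene bound the probe of the other was not tested. The probe of *Pcsk1*, the gene whose groups lay apart, was the following.
Pcsk1: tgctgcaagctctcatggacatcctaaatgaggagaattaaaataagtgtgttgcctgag
*Pcsk2* had 2 probes, which gave differences of unequal size, and bases 31 to 60 of each are shown with the letters AATAAA, the usual signal for adding a poly(A) tail, in capitals.
First Pcsk2 probe: tttgctcgctgtcaatgattattttcacta
Second Pcsk2 probe: aataacctgaatattgtcaatAATAAActc
The first was designed on the RefSeq mRNA of *Pcsk2* and the second on a separate Ensembl transcript of the gene. AATAAA was read on the probe strand only; 3 of the 11 probes held it, those of *Iapp* and *Scg2* besides the second *Pcsk2* probe, against 9.75% of all probes with a sequence.

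None of the 10 genes was called changed between βUCP2Tg and WT islets, where a call needed an adjusted p under 0.05 in limma and a fold change over 1.5. The same rule called 0.41% of all probes tested (0.206% higher and 0.204% lower in βUCP2Tg), and an adjusted p under 0.05 alone, which no member reached either, called 0.427%. The count behind the first share, 145 probes, rested on single arrays, since it was 3753 without WT replicate 1 and 8 without βUCP2Tg replicate 1, 2 or 3. At an unadjusted p under 0.05, 1 of the 10 genes, *Pcsk1*, passed, and 2 of the 11 probes, both lower in βUCP2Tg. Of all probes, 25.2% passed that limit, 15.2% lower and 9.98% higher in βUCP2Tg. Values are given as normalized log2 signals, which are the log2 intensity of a probe minus the 75th percentile of its array, and a difference of 1 is a doubling. On this scale the 10 genes differed by between -0.32 and -0.07, with a median of -0.15, while all probes tested had a median of -0.02 and quartiles at -0.25 and 0.18. All 10 differences were below 0, as were 53.2% of all probes. This common sign depended on the scaling, since 8 of the 10 were above 0 after quantile normalization. With no scaling between arrays every probe moved up by the same amount, which put 9 of the 10 above 0. The median was then 0.23 for all probes and 0.11 for the 10 genes. All 10 lay below the median of all probes with and without this scaling, which cannot change that order. After quantile normalization both medians were 0.03. In a whole islet, fewer cells of a type and less RNA per cell cannot be told apart.

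**Figure D1:**
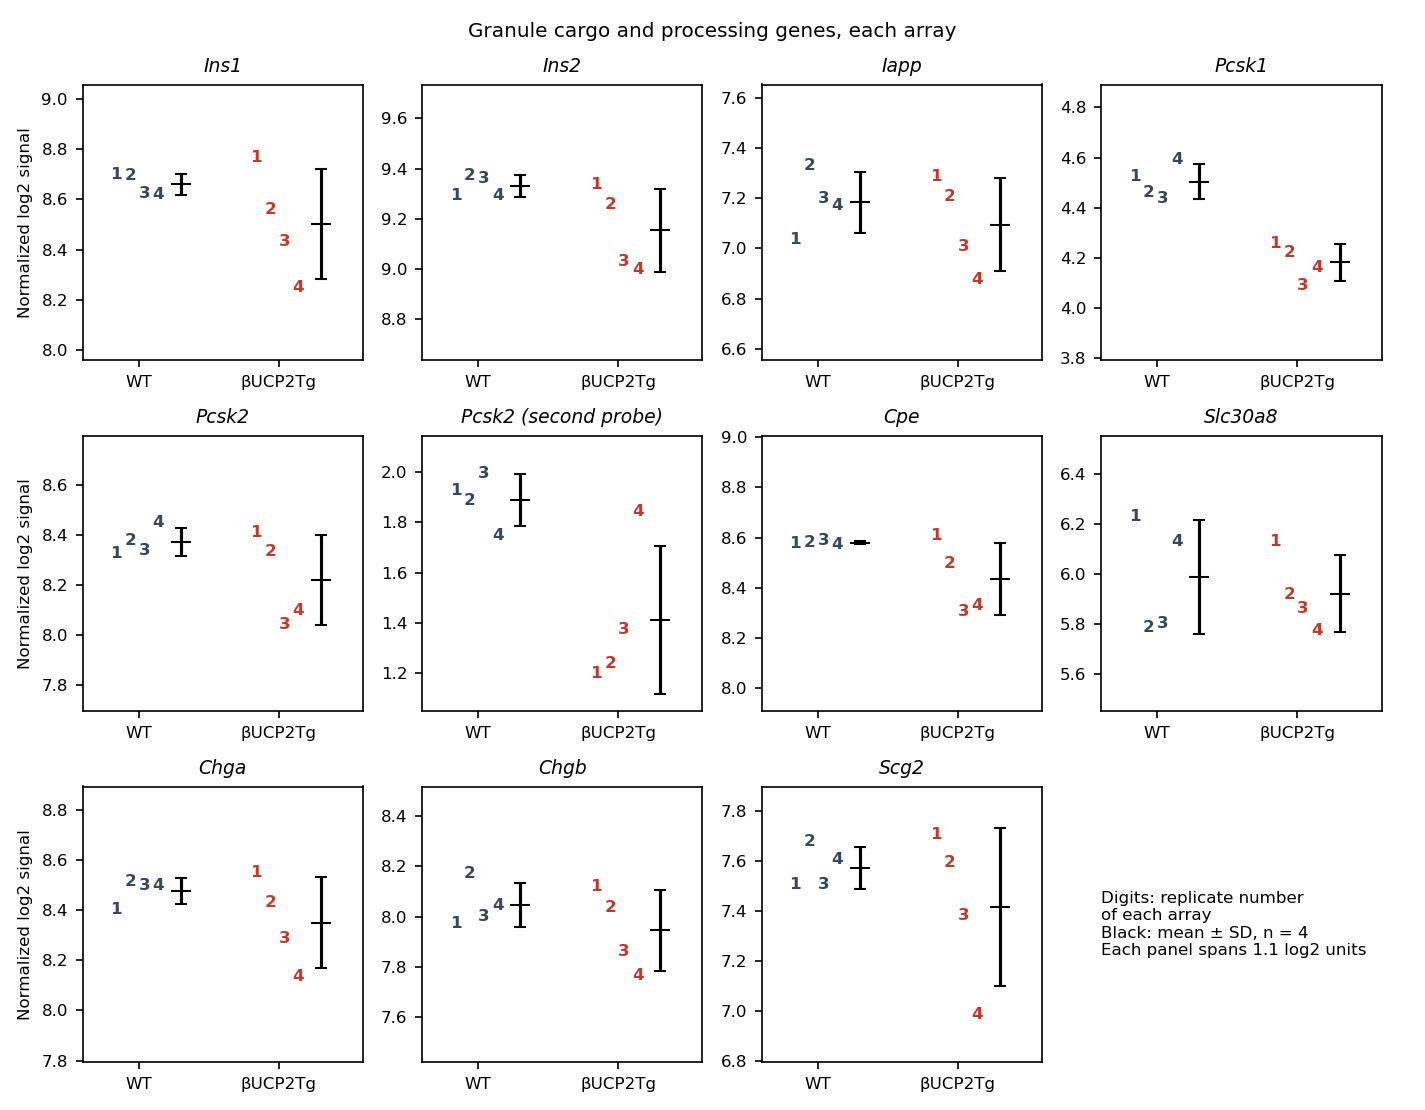
Normalized log2 signal (vertical axis, every panel spanning the same range) of the 11 probes in the 4 WT and 4 βUCP2Tg arrays, with digits for the replicate number and black marks for mean ± SD. Only the panel of Pcsk1 shows groups that do not overlap, at 4.09 to 4.26 against 4.44 to 4.59, and in most panels replicates 3 and 4 of βUCP2Tg are the lowest.

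Among the hormones, the *Ins1* probe gave 8.77, 8.56, 8.43 and 8.25 in βUCP2Tg replicates 1 to 4, and 8.70, 8.70, 8.62 and 8.62 in WT replicates 1 to 4. The highest and the lowest of the 8 values were thus both βUCP2Tg, and the WT values lay between them. The difference was -0.16 (95% CI -0.43 to 0.11, adjusted p = 0.434 in limma). *Ins2*, the insulin gene also found in other mammals, gave 9.33, 9.26, 9.03 and 8.996 in βUCP2Tg and 9.29, 9.37, 9.36 and 9.29 in WT. Replicates 3 and 4 of βUCP2Tg lay under every WT array, replicate 1 within the WT range, and replicate 2 just under it. The difference was -0.18 (95% CI -0.41 to 0.06, adjusted p = 0.315 in limma). *Iapp* encodes islet amyloid polypeptide, which is released together with insulin. Its signals were 7.29, 7.21, 7.01 and 6.88 in βUCP2Tg and 7.04, 7.33, 7.20 and 7.17 in WT, and the groups overlapped, with a difference of -0.09 (95% CI -0.36 to 0.18, adjusted p = 0.667 in limma). For all 3 hormones the interval left out a fall or a rise of 1.5-fold on this scale. Before any scaling, the unscaled log2 signal of *Ins1* was 17.6 ± 0.15 in βUCP2Tg and 17.5 ± 0.078 in WT, and that of *Ins2* was 18.2 ± 0.091 and 18.2 ± 0.063 (SD, n = 4 each). The brightest of these readings was 18.3, under the scanner's limit of 19.6, and no spot of any array was marked as saturated.

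The convertases are the enzymes that open the prohormone. *Pcsk1* is best known for cutting proinsulin where the B chain meets the C-peptide. Its signals were 4.26, 4.22, 4.09 and 4.16 in βUCP2Tg and 4.52, 4.46, 4.44 and 4.59 in WT. Every βUCP2Tg array lay under every WT array. Groups lay apart in that direction for 7.17% of all probes tested, in the other for 5.25%, and in either for 12.4%. The difference was -0.32 (95% CI -0.51 to -0.13), a level 1.25-fold higher in WT, with an exact permutation p of 0.0286, the smallest that 4 against 4 arrays can give. Its adjusted p in limma was 0.0934, and over the alternatives it ran from 0.0344 to 0.563, the latter without scaling between arrays, where the difference was -0.07. The sign of *Pcsk1* stayed below 0 in each of the 24 alternatives. Those that change only the filter, the test or the limits of a call leave the difference at -0.32 and could not turn it.

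*Pcsk2* is best known for cutting where the C-peptide meets the A chain, and in α-cells it makes glucagon. The first probe gave 8.41, 8.33, 8.04 and 8.10 in βUCP2Tg and 8.33, 8.38, 8.34 and 8.45 in WT. Replicates 1 and 2 of βUCP2Tg lay within the WT range, and replicates 3 and 4 lay below it. The difference was -0.15 (95% CI -0.40 to 0.10, adjusted p = 0.407 in limma). The second probe gave 1.20, 1.24, 1.37 and 1.84 in βUCP2Tg and 1.93, 1.89, 1.99 and 1.75 in WT, so that only replicate 4 of βUCP2Tg reached the WT range. Its difference of -0.48 (95% CI -0.83 to -0.13) was the widest of the 11 probes, with an adjusted p of 0.118 in limma and an exact permutation p of 0.0571. Without replicate 4 of βUCP2Tg this probe was called, at -0.62 with an adjusted p of 0.0316 in limma, while the first probe was not. In that setting 4.18% of all probes were called, against 0.41% with all arrays.

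Carboxypeptidase E, the product of *Cpe*, removes the basic residues that the convertases leave behind. Its signals were 8.61, 8.49, 8.31 and 8.33 in βUCP2Tg and 8.58, 8.58, 8.59 and 8.57 in WT. The WT arrays were almost equal, with an SD of 0.0060, while βUCP2Tg had an SD of 0.14 and lay on both sides of them. The difference was -0.14 (95% CI -0.36 to 0.07, adjusted p = 0.365 in limma). *Slc30a8* had the smallest difference, at -0.07 (95% CI -0.38 to 0.25, adjusted p = 0.793 in limma). It was also the gene whose WT arrays spread the most, at 6.23, 5.79, 5.80 and 6.13, while the βUCP2Tg signals were 6.13, 5.92, 5.86 and 5.77. Without WT replicate 1 its difference was 0.02.

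The granins followed the same layout. *Chga* gave 8.55, 8.43, 8.28 and 8.13 in βUCP2Tg and 8.40, 8.51, 8.50 and 8.50 in WT, with a difference of -0.13 (95% CI -0.38 to 0.12). *Chgb*, the member with the most spots at 10 per array, gave 8.12, 8.04, 7.86 and 7.77 in βUCP2Tg and 7.97, 8.17, 8.00 and 8.05 in WT, with a difference of -0.10 (95% CI -0.35 to 0.14). *Scg2* gave 7.70, 7.59, 7.38 and 6.99 in βUCP2Tg and 7.50, 7.68, 7.50 and 7.61 in WT, with a difference of -0.16 (95% CI -0.51 to 0.20). In all 3 the groups overlapped, since replicates 1 and 2 of βUCP2Tg lay at or above the lower WT arrays and replicates 3 and 4 below all of them. The adjusted p in limma was 0.483 for *Chga*, 0.576 for *Chgb* and 0.559 for *Scg2*.

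**Figure D2:**
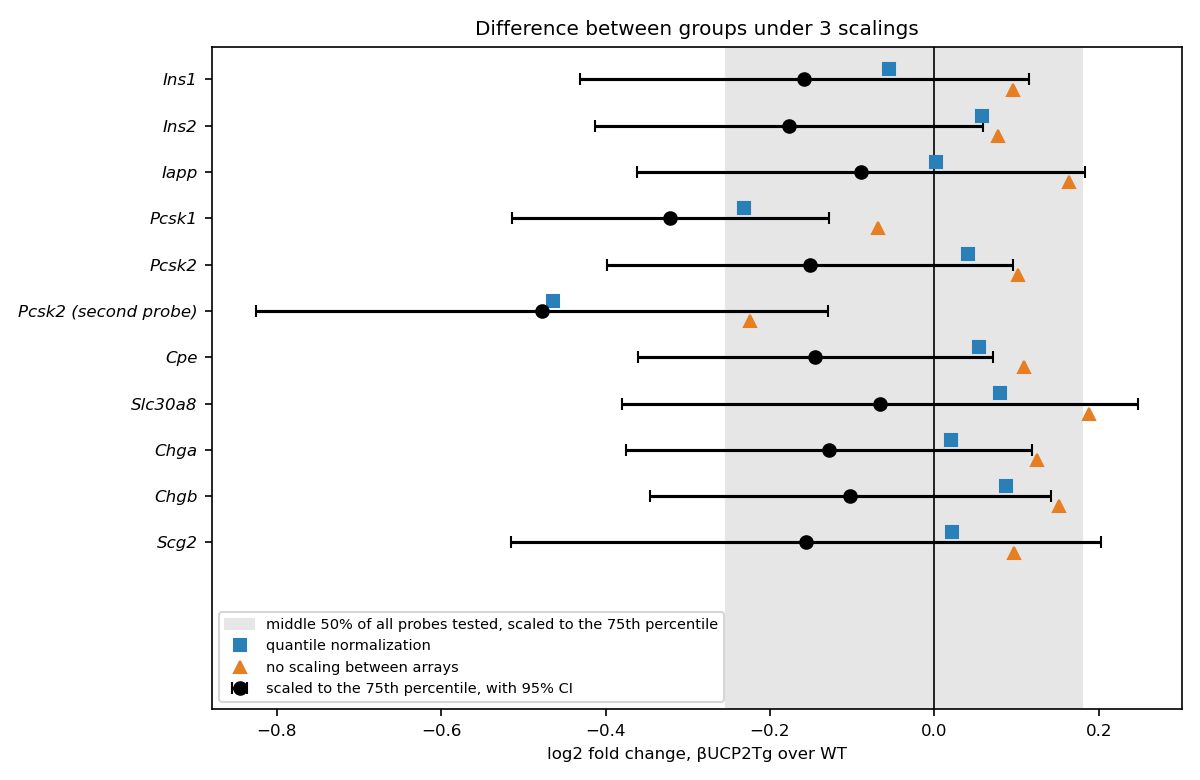
Log2 fold change of βUCP2Tg over WT (horizontal axis) for the 11 probes, as black points with 95% CI after scaling to the 75th percentile, blue squares after quantile normalization and orange triangles without scaling between arrays. The grey band spans the quartiles of all probes tested, -0.25 to 0.18, and the points of all but Pcsk1 and the second Pcsk2 probe move to both sides of 0 as the scaling changes.

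The plot of differences under 3 scalings shows how the sign of these genes moved with the scaling. The 75th percentile of the log2 intensities was 8.996, 9.05, 9.16 and 9.14 on the βUCP2Tg arrays and 8.89, 8.80, 8.86 and 8.78 on the WT arrays, so that every βUCP2Tg array was the brighter. The alternative without scaling was chosen after seeing the data. Under quantile normalization the values were 0.03 for all probes and 0.03 for the 10 genes, and only *Ins1* and *Pcsk1* remained below 0. The 2 probes that kept their sign below 0 in every alternative that was run and could turn it were those of *Pcsk1* and the second of *Pcsk2*. By its brightest probe, no gene of the 10 was called under any alternative that kept the adjusted p.

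In βUCP2Tg the 10 genes moved together from array to array. All 10 lay above the group mean on replicate 1 and all 10 below it on replicates 3 and 4. In WT they did not, with 3, 8, 4 and 5 of the 10 above the group mean on replicates 1 to 4, and *Iapp* low and *Slc30a8* high on replicate 1. After subtraction of the group mean, Pearson's r between genes was above 0 in all 45 pairs over the 8 arrays, with a median of 0.81, a lowest value of 0.04 (*Iapp* with *Slc30a8*) and a highest of 0.97. These values pool both groups, and the spread was wider in βUCP2Tg for 9 of the 10 genes. The arrays share their scaling, so that an error in the scaling of one array moves every gene on it. In βUCP2Tg, replicate 1 was the highest for all 10 genes on the normalized scale, and replicate 3 or 4 was the lowest. Without scaling the pattern was less uniform. Replicate 3 then lay above the group mean for *Ins1*, *Slc30a8*, *Chga* and *Scg2* and below it for the other genes. *Pcsk1* was then highest on replicate 4, at 13.30 against 13.25 on replicate 1, while the other genes stayed highest on replicate 1. The mean over the 10 genes was 7.72, 7.60, 7.43 and 7.34 in βUCP2Tg replicates 1 to 4 and 7.66, 7.70, 7.64 and 7.70 in WT. The second *Pcsk2* probe ran the other way from the rest, with r of -0.70 to the first *Pcsk2* probe and -0.94 to *Scg2*.

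**Figure D3:**
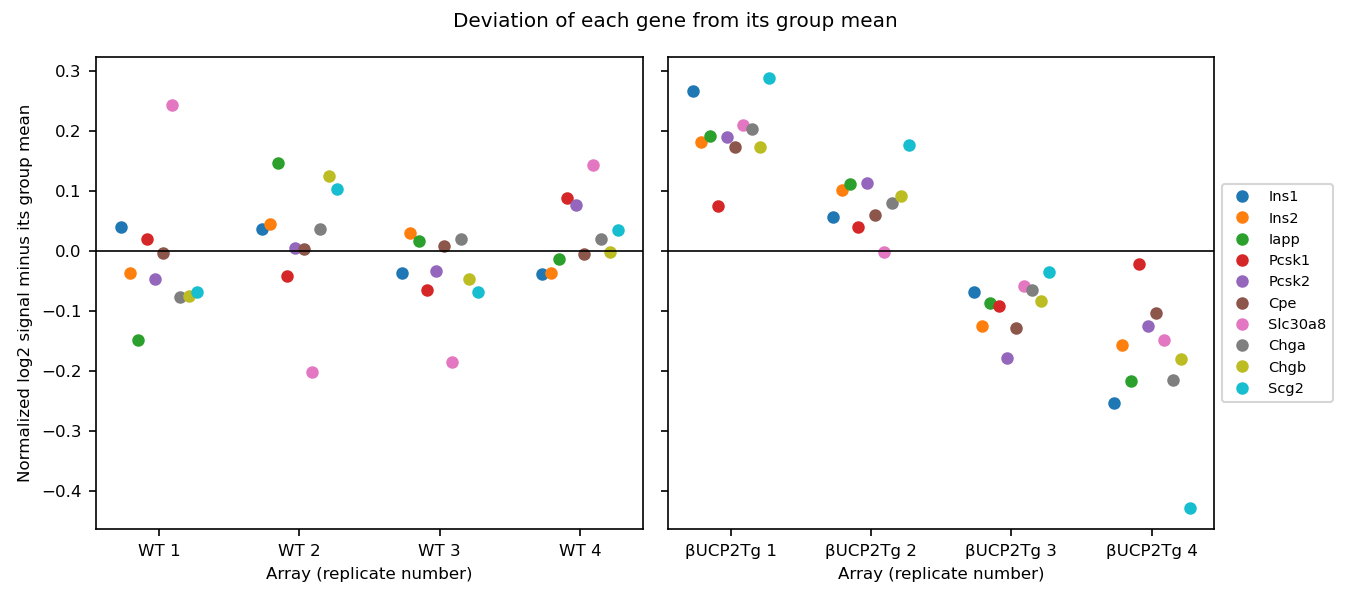
Normalized log2 signal of each of the 10 genes minus the mean of its group (vertical axis), by array, for WT on the left and βUCP2Tg on the right. All 10 genes are above 0 in βUCP2Tg replicate 1 and below 0 in replicates 3 and 4, while in WT most points lie closer to 0, with Slc30a8 the widest.

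The spread between arrays was wider in βUCP2Tg than in WT for 9 of the 10 genes, with *Slc30a8* the exception. The median SD was 0.17 in βUCP2Tg and 0.062 in WT. Over all probes tested the order was the opposite, with a median SD of 0.17 in βUCP2Tg and 0.24 in WT, and βUCP2Tg had the larger SD for 28.9% of probes. Without scaling between arrays, 8 of the 10 genes still had the larger SD in βUCP2Tg, against 32.1% of all probes, with median SDs of 0.096 and 0.062. This comparison was made after the values had been seen and is a description without a test.

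Markers of other cell types moved from array to array as well. All 9 markers of β-cells, *Ins1*, *Ins2* and *Iapp* among them, were measured on all 8 arrays, with a mean of 4.99 to 5.33 in βUCP2Tg and 4.95 to 5.49 in WT. Of 10 acinar genes, the exocrine cells that surround islets, all had a difference below 0, from -2.14 to -1.57, and none was called in limma. Their mean was -0.99, 0.78, -0.44 and 3.57 in βUCP2Tg replicates 1 to 4 and 2.63, 3.77, 4.33 and -0.56 in WT. In both groups the array with the highest acinar mean had the lowest mean of the 10 granule genes (βUCP2Tg replicate 4 and WT replicate 3), and the array with the lowest acinar mean had the highest granule mean (βUCP2Tg replicate 1 and WT replicate 4). Of the others, βUCP2Tg replicate 3 was second lowest in both means and WT replicate 2 second highest in both. The granule means of WT replicates 4 and 2 were nearly equal, at 7.698 and 7.697, while their acinar means were -0.56 and 3.77. The mean of the 5 α-cell markers was 3.56 to 3.67 in βUCP2Tg and 3.27 to 3.45 in WT, that of the 2 PP-cell markers was 7.78 to 8.14 and 7.16 to 7.75, and that of the 4 macrophage markers was -0.27 to 0.15 and 0.33 to 0.63, and in these 3 lists the groups did not overlap. The groups overlapped for 3 δ-cell markers (4.25 to 4.45 and 4.15 to 4.38), the ε-cell hormone *Ghrl* (0.30 to 0.96 and 0.16 to 1.58), 4 duct markers (-1.73 to -1.60 and -1.85 to -1.02), 4 endothelial markers (0.95 to 1.23 and 0.56 to 1.09) and 3 stellate markers (-1.58 to -1.31 and -2.45 to -1.26). Every gene of these lists was well above background on all arrays by at least 1 probe, and no marker gene was called in limma. The part of these cells in the differences of the granule genes was not tested. *Ucp2* itself stood at 6.99 to 7.71 in βUCP2Tg and 0.92 to 1.46 in WT, as the labels have it.

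Differences between a pair of genes on the same array do not depend on a shift between arrays, and 4 such pairs were compared. They set the insulin genes against each other, the amyloid peptide against insulin, the convertases against each other, and the chromogranins against each other. *Pcsk1* minus *Pcsk2*, with the first *Pcsk2* probe, was -4.15, -4.11, -3.95 and -3.94 in βUCP2Tg and -3.80, -3.91, -3.90 and -3.86 in WT. All 4 βUCP2Tg arrays lay below all 4 WT arrays, and the difference between the groups was -0.17 (95% CI -0.32 to -0.02, exact permutation p = 0.0286, 0.114 after Benjamini-Hochberg adjustment over the 4 pairs). The signal of *Pcsk1* relative to that of *Pcsk2* was thus 1.13-fold higher in WT. With 1 pair of 4 lying apart, the adjusted p could not go below 0.114 in this design. The difference was -0.27 after quantile normalization (exact permutation p = 0.0286). It was -0.15 with an exact permutation p of 0.114 without WT replicate 1, and with WT replicate 2, 3 or 4 left out the exact permutation p was 0.0857 each time. The result also rested on which *Pcsk2* probe was used, a choice examined after seeing the data. With the second probe, *Pcsk1* minus *Pcsk2* was 3.06, 2.99, 2.72 and 2.32 in βUCP2Tg and 2.60, 2.58, 2.44 and 2.84 in WT, so that the groups overlapped and the sign turned, with a difference of 0.16 (exact permutation p = 0.429). With the mean of both probes the difference was -0.01 (exact permutation p = 0.914).

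**Figure D4:**
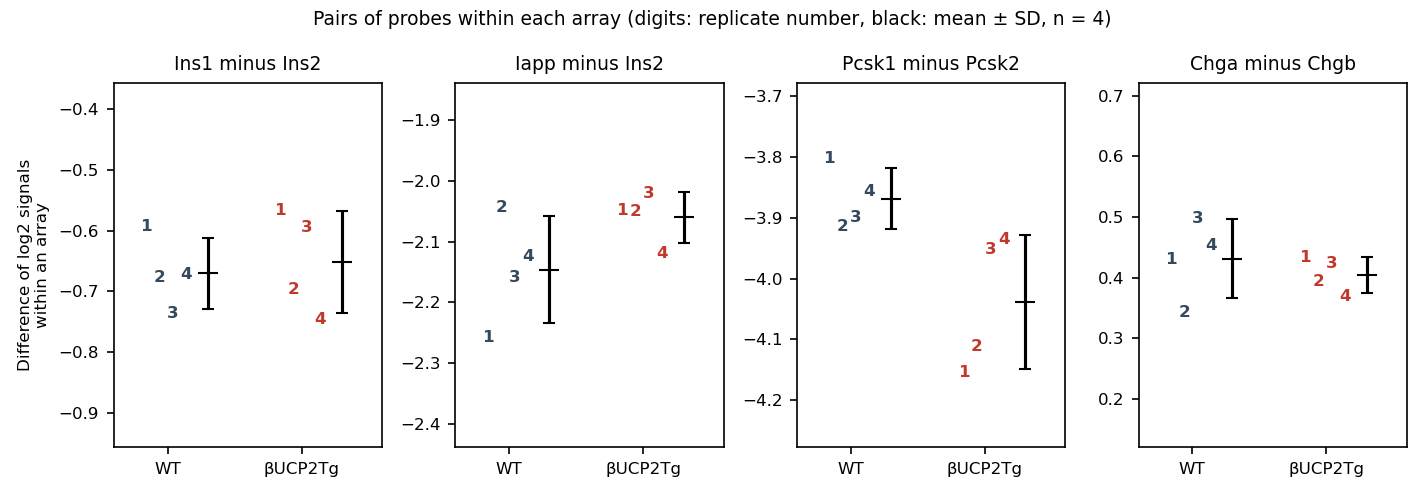
Difference of the log2 signals of 2 probes on the same array (vertical axis) for 4 pairs of genes, in WT and βUCP2Tg, with digits for the replicate number and black marks for mean ± SD. Only Pcsk1 minus Pcsk2, here with the first Pcsk2 probe, separates the groups, at -4.15 to -3.94 in βUCP2Tg against -3.91 to -3.80 in WT.

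The other pairs overlapped. *Ins1* minus *Ins2* was -0.57, -0.70, -0.60 and -0.75 in βUCP2Tg and -0.59, -0.68, -0.74 and -0.67 in WT, so that the difference between the groups was 0.02 (95% CI -0.11 to 0.14, exact permutation p = 0.80). *Iapp* minus *Ins2* differed by 0.09 (95% CI -0.03 to 0.21, exact permutation p = 0.114, adjusted 0.229), at -2.05, -2.05, -2.02 and -2.12 in βUCP2Tg and -2.26, -2.04, -2.16 and -2.12 in WT. It was 0.05 without WT replicate 1. *Chga* minus *Chgb* differed by -0.03 (95% CI -0.11 to 0.06, exact permutation p = 0.514), and by -0.06 without WT replicate 2. The intervals of these 3 pairs left out a change of 1.5-fold in either direction.

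Genes that serve the same granule were taken from a list of 24, of which 23 were tested, and no array showed *Pcsk5* well above background. None was called in limma, with 8 above and 15 below 0 and a median of -0.09. At an unadjusted p under 0.05, 2 were higher and 3 lower in βUCP2Tg, 5 of 23, against 25.2% of all probes. The 3 with the widest difference are named. *Pcsk6*, a convertase of the same family that is secreted, gave 2.30, 2.38, 2.45 and 2.15 in βUCP2Tg and 1.83, 1.34, 1.24 and 1.34 in WT, a difference of 0.89 (95% CI 0.55 to 1.22, adjusted p = 0.0516 in limma). *Vgf*, a granin-like prohormone, gave 4.81, 4.59, 4.75 and 4.74 in βUCP2Tg and 4.83, 5.79, 5.58 and 5.86 in WT, a difference of -0.79 (95% CI -1.29 to -0.29, adjusted p = 0.0989 in limma). *Scg3*, a granin that anchors chromogranin A to the granule membrane, stood at 6.53 ± 0.052 in βUCP2Tg, with 6.58 its highest array, and at 6.88 ± 0.10 in WT, with 6.75 its lowest (SD, n = 4 each). Its difference was -0.35 (95% CI -0.55 to -0.15, adjusted p = 0.0887 in limma). By the brightest probe, the groups lay apart for 6 of the 23, with 2 higher and 4 lower in βUCP2Tg, against 12.4% of all probes. By that probe the groups of all 3 named genes did not overlap, though the *Vgf* signal of WT replicate 1 lay next to βUCP2Tg. A second *Vgf* probe differed by -0.71 (adjusted p = 0.151 in limma). On it WT replicate 1, at -0.61, lay within the βUCP2Tg range of -0.71 to -0.32. The groups of a second *Pcsk6* probe lay apart, with a difference of 0.53 (adjusted p = 0.0934 in limma). *Pcsk6* passed both limits of a call under other settings, quantile normalization and an intensity trend in limma among them.

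Transcription factors that act on the insulin genes were also listed. All 10 were tested and none was called in limma, with 6 above and 4 below 0 and a median of 0.12. At an unadjusted p under 0.05, 1 was higher and 2 were lower in βUCP2Tg, 3 of 10, against 25.2% of all probes. The widest differences were those of *Foxa2* (0.51, adjusted p = 0.148 in limma), *Nkx2-2* (0.42, adjusted p = 0.361) and *Nkx6-1* (0.41, adjusted p = 0.310). In all 3 the WT replicate 1 array was the highest of its group, at 4.68 for *Foxa2* against 3.86 to 4.17 in the other WT arrays, and the 4 βUCP2Tg arrays stood at 4.496 to 4.752. A second *Nkx2-2* probe differed by 0.15 (adjusted p = 0.614 in limma). By the brightest probe, the 2 that were lower, *Mafa* and *Neurod1*, were also the only 2 of the 10 factors whose groups lay apart. Of all probes, 12.4% lay apart in either direction and 7.17% lower. A dimmer probe of *Glis3* also lay apart, at -0.68 (adjusted p = 0.097 in limma), while its brightest probe was at 0.13. These genes are named after their values were seen. *Mafa*, an activator of the insulin genes in mature β-cells, gave 1.95, 1.84, 1.86 and 2.09 in βUCP2Tg and 2.35, 2.29, 2.30 and 2.14 in WT, a difference of -0.34 (95% CI -0.56 to -0.12, adjusted p = 0.103 in limma). *Neurod1*, a basic helix-loop-helix factor, gave 4.30, 4.23, 4.27 and 4.36 in βUCP2Tg and 4.61, 4.46, 4.44 and 4.55 in WT, a difference of -0.23 (95% CI -0.42 to -0.04, adjusted p = 0.147 in limma).

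Sites in the promoters were read for the 7 of the 10 genes found in a table of RefSeq promoters (GRCm38.p6), *Ins1*, *Iapp*, *Pcsk1*, *Pcsk2*, *Chga*, *Chgb* and *Scg2*, in the 250 bases before the start that this table gives. For *Pcsk1* that start, chr13:75089857, lies 437 bases inside the gene as the RefSeq gene table lists it, so both *Pcsk1* windows are inside the listed gene, while for the other 6 the starts were the same in both tables. The motifs were chosen after these promoters had been read. TGACGT, the core of the cAMP response element, was searched on both strands, with overlapping matches counted, and was in 4 of the 7, those of *Pcsk1*, *Chga*, *Chgb* and *Scg2*, against 6.47% of all 32851 promoters in the table. CATCTG, an E-box of the kind that basic helix-loop-helix factors bind, was in 2 of the 7, *Ins1* and *Iapp*, against 14.4% of all. The windows of 30 bases are on the strand of the gene, with the motif in capitals.
Pcsk1, chr13:75089767-75089796, plus strand: tccaggtagatcTGACGTcaagagatggct
Pcsk1, chr13:75089795-75089824, plus strand: ctttcgtcgattTGACGTgtaaacactcat
Chga, chr12:102554885-102554914, plus strand: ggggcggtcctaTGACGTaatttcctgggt
Chgb, chr2:132781558-132781587, plus strand: ggggctgctccgTGACGTcagggctgagcg
Scg2, chr1:79440077-79440106, minus strand: aggctgagccggTGACGTcagcgtggaatg
Ins1, chr19:52264201-52264230, plus strand: ggttcatcaggcCATCTGgtcccttattaa
Iapp, chr6:142298302-142298331, plus strand: gcccacctgctcCATCTGccaatgaaaccc
The 4 genes with TGACGT include *Pcsk1*, whose groups lay apart, and 3 granins, whose groups overlapped. A match of letters is not a measured binding site.

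The genes whose pattern over the arrays was most like that of the insulin genes were sought among the 17850 other genes with a tested probe, by Pearson's r of the deviations from the group means over 8 arrays. For *Ins1* they were *Zfp846* (r = 0.99), *Gm10428* (r = 0.99) and *Prl3b1* (r = 0.98), and for *Ins2* they were *Faim2* (r = 0.98), *Milr1* (r = 0.96) and *Gm20594* (r = 0.96). None of the 6 was called in limma, and the arrays share their scaling.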

How the data were processed

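Total RNA of 8 islet samples (4 βUCP2Tg, 4 WT) was labelled with Cy3 and hybridised to one-colour Agilent mouse arrays on 1 slide. The authors deposited scanner files from Agilent Feature Extraction, in which each of 59305 spots that are not controls has a background-subtracted intensity on a linear scale. The file headers give Feature Extraction 10.7.3.1 and the labels 9.1. The authors also deposited a GeneSpring table of log2 values, which equal the log2 intensity of each array minus a shift of its own. Its columns of the authors' own fold changes and p-values were not used.

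Outlier spots (48 to 106 per array) and controls were dropped, the intensities were log2-transformed and scaled to the 75th percentile of their array, and the spots of a probe were averaged. Probes with at least 50% of their spots well above background on at least 4 of 8 arrays were tested with limma 3.58.1 in R 4.3.3 (lmFit and eBayes, Benjamini-Hochberg adjustment over all of them), after a test on simulated data, and calls needed both an adjusted p under 0.05 and a change over 1.5-fold. The brightest probe stood for a gene. Single values and differences within an array were tested by two-sided exact permutation. The data.table package (1.17.8), matplotlib (3.10.9) and Python (3.11.15) were also used. The number of arrays limits the precision. On WT replicates 1 and 3, 2 of 10 metrics of Agilent's quality check were out of range. The array annotation uses build mm9.

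Named were all 10 members, *Ucp2*, the 3 genes of the granule list and of the factor list with the widest difference, the marker lists and the 3 genes most like *Ins1* and *Ins2*. *Mafa*, *Neurod1* and *Glis3* were named outside this rule, after their values were seen. The members and lists were chosen with earlier results of these data known. Alternatives covered the filter, the scaling, the background correction, the deposited values, outlier spots, the test, the probe of a gene, the replicate block and leaving out each array. No scaling between arrays, leaving out WT replicates 1 and 3 together, and the second *Pcsk2* probe or the mean of both in *Pcsk1* minus *Pcsk2*, were added after seeing the data.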

Additional observations from a re-analysis of the deposited data

Results flagged for a closer look

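The *Chga* signal of WT replicate 1 stood apart from the other WT arrays. It was 8.40, while the others lay between 8.50 and 8.51, and the gap to the nearest was 0.851 of the range of the group. Of 30 groups of 4 values examined for this, 1 had a value so far apart, and chance gives such a value in about 1 of 20 groups, or 1.5 here. The same array had 2 quality metrics out of range. Whether that bears on the *Chga* value was not tested.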

How the results depend on the processing

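With 4 arrays per group, the 95% CI of 9 of the 10 genes included 0, with *Pcsk1* the exception. By its brightest probe, none of the 10 genes was called under any of the 24 alternatives except *Pcsk1* at an unadjusted p with no limit on the fold (1 gene). The second *Pcsk2* probe also passed there, and was called without βUCP2Tg replicate 4 (-0.62). Quantile normalization turned the sign of *Ins2* (0.0575), *Iapp* (0.0025), *Pcsk2* (0.0407), *Cpe* (0.0547), *Slc30a8* (0.0797), *Chga* (0.0205), *Chgb* (0.0869) and *Scg2* (0.0210), and of *Ins1* minus *Ins2* (-0.11) and *Iapp* minus *Ins2* (-0.0550), and gave a median of 0.0308. Without scaling between arrays, added after seeing the data, every gene moved up alike, with a median of all probes of 0.23 against -0.02, and the differences were 0.0956 for *Ins1*, 0.0769 for *Ins2*, 0.16 for *Iapp*, 0.10 for *Pcsk2*, 0.11 for *Cpe*, 0.19 for *Slc30a8*, 0.13 for *Chga*, 0.15 for *Chgb* and 0.0973 for *Scg2*, with a median of 0.11. Leaving out each array in turn moved the median of the 10 genes between -0.21 and -0.065, *Ins1* between -0.246 and -0.0737, *Ins2* between -0.237 and -0.124, *Iapp* between -0.154 and -0.0174, *Pcsk1* between -0.346 and -0.291, *Pcsk2* between -0.214 and -0.0919, *Cpe* between -0.202 and -0.102, *Chga* between -0.196 and -0.0562, *Chgb* between -0.16 and -0.0421, *Scg2* between -0.252 and -0.0137, *Slc30a8* between -0.136 and 0.0152 (the latter without WT replicate 1), *Ins1* minus *Ins2* between -0.0095 and 0.0504, *Iapp* minus *Ins2* between 0.05 and 0.121, *Chga* minus *Chgb* between -0.0554 and -0.0038 (the latter without WT replicate 3), and *Pcsk1* minus *Pcsk2* between -0.20 and -0.13 (exact permutation p 0.0286 to 0.114). The lowest value of each of the 10 genes came without βUCP2Tg replicate 1. *Pcsk1* minus *Pcsk2* was 0.156 with the second *Pcsk2* probe and -0.0072 with the mean of both, added after seeing the data. It was -0.272 after quantile normalization (exact permutation p = 0.0286), -0.18 with normexp (exact permutation p = 0.0857) and -0.15 without WT replicates 1 and 3 together (exact permutation p = 0.133), where *Chga* minus *Chgb* was 0.0069. The cause was not tested.

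Of the other granule genes, 1 (*Pcsk6*) was called with the filter at all 8 arrays, quantile normalization, the percentile over probes measured on all arrays, an intensity trend, no scaling, or without βUCP2Tg replicate 4, and 2 (*Vgf* and *Pcsk6*) with normexp, without WT replicate 1, or without WT replicates 1 and 3 together, so that leaving out one array gave 0 to 2. At an unadjusted p, 5 of them and 3 factors passed. Of the factors, 1 (*Foxa2*) was called without scaling or without WT replicate 1, and leaving out one array gave 0 to 1. Over all probes, 145 were called, against 8 to 3753 when one array was left out (3753 without WT replicate 1, 1466 without βUCP2Tg replicate 4), 21 without a filter, 237 with the filter at all 8 arrays, 815 with normexp, 342 with a trend, 26 with the methods' t-test after Benjamini-Hochberg adjustment, 82 genes with the mean of all probes, 273 without WT replicates 1 and 3 together and 2877 without scaling.

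Whether the replicate numbers pair the samples is not stated in the labels. The deviations of same-numbered arrays correlated at 0.44, -0.05, -0.01 and -0.24, which cannot settle it with so few arrays. With the replicate number as a block, 14 probes were called and none of the 10 genes, and *Pcsk1* minus *Pcsk2* was -0.17 with an exact permutation p of 0.125, the smallest that 4 pairs can give.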
